A study of Mus musculus with 61 samples.

Results

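The tibialis anterior, the ankle flexor at the front of the shin, was profiled by RNA sequencing of the whole muscle 7 days after mice had exercised and was set against the same muscle of mice that had not. The comparison takes the 6 wild-type tibialis anterior libraries whose labels give day 7 of recovery from acute exercise (3 libraries, with the ID numbers 8, 9 and 10) or a sedentary state (3 libraries, 5, 6 and 7). The series holds 61 libraries in all. Of 55011 genes in the deposited table, 12692 had enough counts in this muscle to be tested, and the comparison is described across those. Every mouse was C57BL/6J, and no transgene, toxin or antibody is labelled in these groups. The labels of these libraries state neither how the mice were exercised nor their age or sex. Wild-type tibialis anterior at days 1 and 2 and wild-type quadriceps, sedentary and at day 7, are drawn on where they bear on the day 7 values, with 3 libraries each. The series asks what regulatory T cells, which restrain inflammation, contribute to the muscle's response to exercise, and these groups are its untouched time course.

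Fast muscles of the mouse are built mostly from fibres that use glycolysis, with the myosin heavy chains Myh4 (type IIB) and Myh1 (type IIX), and a minority that are more oxidative, with Myh2 (type IIA). Each sarcomere is anchored at the Z-disc, where alpha-actinin crosslinks thin filaments and proteins with LIM domains, a zinc-binding fold, take part in sensing load. Muscle also rebuilds NAD, the electron carrier of its metabolism, and has its own kinase for making it from nicotinamide riboside, Nmrk2.

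The 6 libraries held between 6069064 and 8225738 counts, with 17529 to 21060 genes detected, the highest in sedentary library 6, and 5.60 to 6.25% of counts from mitochondrial genes. Exact two-sided permutation tests between the groups gave p = 0.4 for the totals, 0.9 for the genes detected and 0.8 for the mitochondrial share. No pair of replicates agreed within sampling noise. A count of 0 allows a level of up to 3 counts, or 0.365 to 0.494 CPM (the count scaled to a common library total) across these libraries, for counting error only. Levels below are CPM after scaling by TMM factors, which correct for differences in library composition. The labels do not say that the mice came from separate cages or cohorts, so p-values measure only the spread between these samples. With 3 libraries against 3, an exact permutation test of a single value cannot go below p = 0.1.

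Promoters are shown for the kinase gene Nmrk2 and the LIM gene Fhl1, whose change passed the test at day 7, and for the alpha-actinin gene Actn2, which came next among genes with an established symbol and was lower at day 7 like Fhl1. Each sequence is the 250 bases before the start site in RefSeq, on the gene's own strand in build GRCm38.p6. The Fhl1 window belongs to 1 of 2 start sites listed and lies inside the gene's span given below. Which start this muscle uses was not tested. Capitals mark E-boxes (CANNTG on either strand), the short motif bound by MyoD and by clock factors among others.

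Nmrk2, chr10:81202038-81202287, minus strand: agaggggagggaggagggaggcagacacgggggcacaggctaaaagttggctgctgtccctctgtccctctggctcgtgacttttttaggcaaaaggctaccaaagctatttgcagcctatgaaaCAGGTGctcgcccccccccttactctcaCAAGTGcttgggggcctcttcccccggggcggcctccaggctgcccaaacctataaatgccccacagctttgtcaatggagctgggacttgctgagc
Fhl1, chrX:56779433-56779682, plus strand, 1 of 2 start sites listed: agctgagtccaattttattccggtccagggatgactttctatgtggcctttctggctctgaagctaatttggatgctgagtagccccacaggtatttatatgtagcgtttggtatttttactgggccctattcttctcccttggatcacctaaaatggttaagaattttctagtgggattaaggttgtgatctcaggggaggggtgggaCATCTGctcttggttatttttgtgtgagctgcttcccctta
Actn2, chr13:12340733-12340982, minus strand: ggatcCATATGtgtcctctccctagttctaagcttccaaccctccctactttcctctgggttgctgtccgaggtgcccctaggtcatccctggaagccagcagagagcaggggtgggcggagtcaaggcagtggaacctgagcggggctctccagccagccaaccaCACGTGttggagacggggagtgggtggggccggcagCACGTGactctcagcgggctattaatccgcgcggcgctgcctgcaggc

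The Nmrk2 window holds 2 E-boxes, the Fhl1 window 1 and the Actn2 window 3, of which 2 read CACGTG. E-boxes lie in 66.2% of 32817 promoter windows of the same length. A TATA box (TATAAA, either strand) is present in the Nmrk2 and the Fhl1 window and in 12.4% of all windows, and a CArG box in the Fhl1 window and in 1.47% of all. The motif letters are a description and no site was tested.

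Across the muscle few genes passed the test against the sedentary level at day 7. Of 12692 genes tested, 2 passed an adjusted p of 0.05 in edgeR's quasi-likelihood test, or 0.0158%, with Nmrk2 up and Fhl1 down, or 0.00788% in each direction. Of all genes 49.7% stood above the sedentary level and 50.3% below it. By the same rule 7 genes were called at day 1 (0.0552%) and 8 at day 2 (0.063%). At an unadjusted p under 0.05 there were 713 genes, or 5.62%, of which 386 (3.04%) were higher and 327 (2.58%) lower. The libraries of the groups did not overlap for 1477 genes, or 11.6%, with 782 (6.16%) higher and 695 (5.48%) lower. Without the TMM factors that split was 523 higher (4.12%) and 1085 lower (8.55%), since the scaling moves the median of all genes from -0.07 to 0.00 on the log2 scale. Abundant genes stood out from the rest: of 178 genes above 500 CPM, 50 had an unadjusted p under 0.05, or 28.1%, against 148 of 1945 genes (7.61%) at 50 to 500 CPM and 361 of 6573 (5.49%) at 5 to 50 CPM. The abundant genes also had smaller errors, with a median SE of 0.07 on the log2 scale against 0.25 at 5 to 50 CPM, while their median absolute log2 fold change was 0.08 against 0.17. The calls rest on few libraries. Without day 7 library 8 or 9, or without sedentary library 5 or 6, 0 genes were called by edgeR (763, 615, 652 and 675 at an unadjusted p under 0.05). Nmrk2 and Fhl1 were both called without sedentary library 7, and Nmrk2 and Mb without day 7 library 10. DESeq2 on all the libraries called 24 genes, 12 higher and 12 lower, with both among them.

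**Figure D1:**
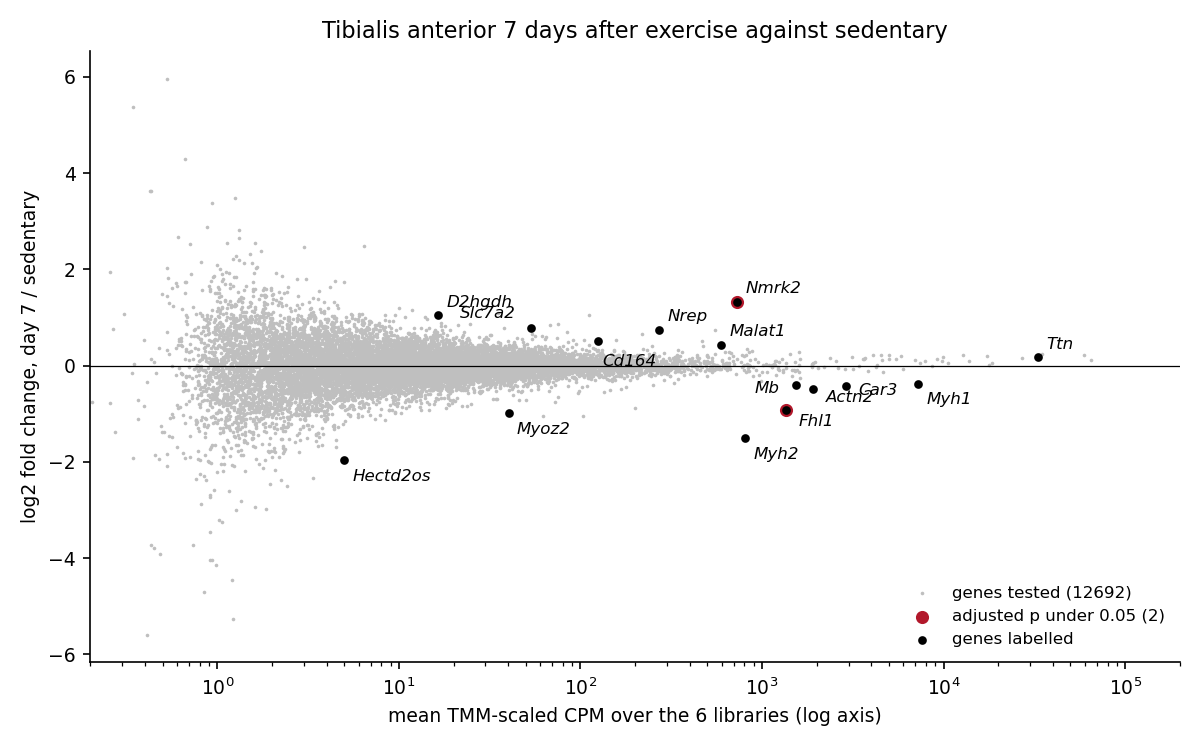
Change at day 7 against expression level for the genes tested in the tibialis anterior. The x axis is the mean TMM-scaled CPM over the 6 libraries on a log axis and the y axis the log2 fold change, with the 2 called genes ringed in red and named genes in black; the spread narrows from low to high expression and Nmrk2, Fhl1 and Myh2 lie outside it.

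Nmrk2 (chr10:81198170-81202051, build GRCm38) encodes nicotinamide riboside kinase 2, which makes nicotinamide mononucleotide for NAD in striated muscle. Its level was 347, 428 and 465 CPM in the sedentary libraries and 1117, 1154 and 849 CPM at day 7. Every day 7 library lay above every sedentary one. The rise was from 414 ± 60.3 to 1040 ± 166 CPM (SD, n = 3), a log2 fold change of 1.33 ± 0.19 (SE, adjusted p = 0.0174, edgeR). On the first day of recovery the same gene stood on the other side of the sedentary level, at 198, 93.1 and 157 CPM. It had fallen by then (log2 -1.47 ± 0.19, adjusted p = 0.00392), in a comparison that shares its sedentary libraries with that of day 7. At day 2 it was at 464, 424 and 445 CPM, within the sedentary range (log2 0.10). Quadriceps levels were 519, 576 and 539 CPM in sedentary and 969, 968 and 848 CPM in day 7 libraries, again without overlap, and the difference did not pass there (log2 0.77 ± 0.23, adjusted p = 0.281). The muscles' responses were not shown to differ (0.56 ± 0.34, adjusted p = 0.974). Nmrk2 lies wholly within Atcayos (chr10:81194609-81210877), a transcript of the opposite strand that was lower at day 7, at 165, 145 and 171 against 103, 95.5 and 129 CPM (log2 -0.56 ± 0.12, adjusted p = 0.166). Whether counting used strand is not stated, so reads of the pair may not be told apart.

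The other genes of NAD synthesis did not pass. Of 13 tested on a list of 14, 7 were higher and 6 lower, with a median log2 fold change of 0.08 against 0.00 for all genes, and 1 was called. Nampt, the rate-limiting enzyme of the salvage route from nicotinamide, stood at 145, 168 and 148 CPM in sedentary and 192, 211 and 168 CPM at day 7. The groups did not overlap, though the lowest day 7 library equals the highest sedentary one to the digits given, and the log2 fold change was 0.31 ± 0.11 (unadjusted p = 0.0135). Nmrk1, the kinase made in most tissues, was at 9.61 ± 2.98 and 12.1 ± 1.43 CPM (log2 0.33 ± 0.27), with overlap. The enzymes that turn the mononucleotide into NAD stood close to sedentary values, Nmnat1 at 26.6 ± 1.56 and 25.6 ± 2.14 CPM and the mitochondrial Nmnat3 at 26.4 ± 1.20 and 27.9 ± 5.32 CPM. Slc25a51, which carries NAD into mitochondria, stood at 97.1 ± 3.09 and 103 ± 2.46 CPM (log2 0.08 ± 0.11). Naprt of the nicotinic acid route was at 7.18 ± 2.53 and 4.36 ± 0.818 CPM (log2 -0.72 ± 0.44) and the NAD synthetase Nadsyn1 at 2.54 ± 0.753 and 4.33 ± 0.519 CPM (log2 0.77 ± 0.48). The remaining members were Nadk and Nnt, at log2 -0.06 ± 0.15 and -0.10 ± 0.22, Nadk2 (0.61 ± 0.38), Nt5e (-0.28 ± 0.92) and Qprt (-2.38 ± 1.26), the last at 1.47 CPM or less on average in both groups. Nmnat2 was too low to test.

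Fhl1 (chrX:56731787-56793346) encodes a protein made of LIM domains that binds at the sarcomere. Sedentary libraries held 1950, 1834 and 1553 CPM and day 7 libraries 906, 998 and 928 CPM. The groups were far apart relative to their spread, and Fhl1 fell from 1779 ± 204 to 944 ± 48.1 CPM (log2 -0.91 ± 0.13, adjusted p = 0.0174, edgeR). At day 1 it was at 1435, 1817 and 1262 CPM and at day 2 at 1613, 2356 and 1765 CPM. Those days overlapped the sedentary libraries (log2 -0.24 and 0.10).

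Actn2, the alpha-actinin that crosslinks actin at the Z-disc of all fibre types, stood just outside the threshold. Its level was 2395, 2119 and 2181 CPM in sedentary and 1439, 1694 and 1640 CPM in day 7 libraries. The groups did not overlap (2231 ± 145 and 1591 ± 134 CPM, log2 -0.49 ± 0.08, adjusted p = 0.0504), and the gene was called by DESeq2 (adjusted p = 0.000733). Myoz2, calsarcin-1, a Z-disc protein of slow and oxidative fibres, was at 61.9, 42.1 and 56.5 CPM and then at 24.0, 29.2 and 27.9 CPM (log2 -0.99 ± 0.21, adjusted p = 0.166). Csrp3, the muscle LIM protein, stood at 121, 61.6 and 68.6 CPM against 40.0, 41.5 and 39.8 CPM (log2 -1.05 ± 0.44). The day 7 libraries were low and close together in both, and the sedentary libraries were spread.

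Of the 26 LIM and Z-disc genes tested, 11 were higher and 15 lower, with a median of -0.10. That median ran from -0.12 to -0.01 on leaving out each library in turn. It was -0.01 without sedentary library 5 and -0.06 without day 7 library 9. There were 5 lower and 3 higher at an unadjusted p under 0.05, as were 2.58% and 3.04% of all genes, with Fhl1 the 1 called. Of genes above 500 CPM 28.1% had such a p in either direction. Nrap, an actin-binding protein of myofibril assembly, was among the lower ones (log2 -0.26 ± 0.10, unadjusted p = 0.0197) and Xirp2, an actin-binding protein of the Z-disc region, among the higher (0.31 ± 0.11, unadjusted p = 0.013). Other structural members with high counts differed by small steps. Ldb3, which tethers alpha-actinin, was at 1875 ± 74.6 and 1891 ± 115 CPM, desmin (Des), the intermediate filament, at 3959 ± 191 and 3682 ± 114 CPM, and telethonin (Tcap), which is among the lower ones, at 4830 ± 291 and 4397 ± 242 CPM (unadjusted p = 0.0305). Myoz1, the calsarcin of fast fibres, was at 2920 ± 214 and 3310 ± 68.9 CPM (log2 0.18 ± 0.06, unadjusted p = 0.00803). Fhl3 went the other way from Fhl1, at 110 ± 10.3 and 139 ± 8.93 CPM (log2 0.33 ± 0.15, unadjusted p = 0.0491), and Fhl2 was barely present at 1.33 ± 1.02 and 1.05 ± 1.09 CPM. The ankyrin repeat proteins of the titin spring did not pass in edgeR, with Ankrd1 at 11.8 ± 2.25 and 11.6 ± 3.60 CPM, Ankrd2 at 91.4 ± 20.9 and 58.3 ± 8.07 CPM (log2 -0.65 ± 0.20) and Ankrd23 at 1095 ± 88.6 and 872 ± 78.6 CPM (log2 -0.33 ± 0.08, adjusted p = 0.354). Titin itself (Ttn) was higher by a small and even step, at 31757, 31533 and 29939 CPM against 35679, 34768 and 34582 CPM (log2 0.17 ± 0.04, adjusted p = 0.353). That gene had been called up at day 1 (log2 0.23, adjusted p = 0.0477).

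**Figure D2:**
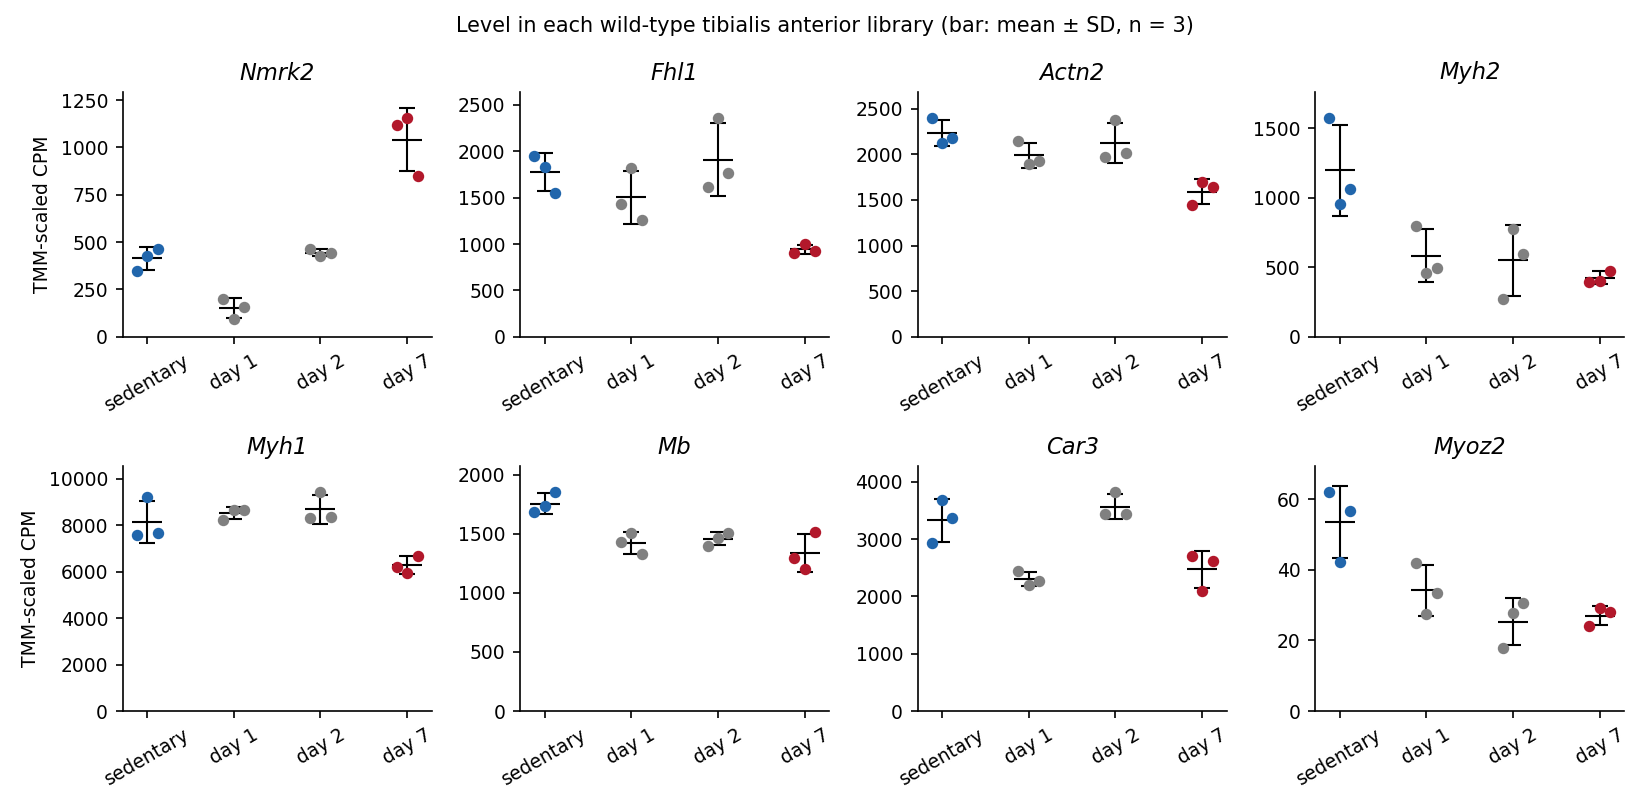
TMM-scaled CPM of 8 genes in every wild-type tibialis anterior library, sedentary (blue), day 1 and day 2 (grey) and day 7 (red), with the mean and SD of 3 libraries as black bars. Nmrk2 dips at day 1 and is highest at day 7, Fhl1, Actn2 and Myh1 are low at day 7 only among the days shown, and Myh2, Mb and Myoz2 are below the sedentary mean on each recovery day.

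Myosin heavy chains of the less fast types took a smaller share at day 7. Counts per kb of exon were used to compare the chains with one another, since they differ in length, and the chains are close copies whose reads the counting could have split. Myh2, of type IIA fibres, made up 3.13, 2.02 and 2.20% of adult chains in sedentary and 0.708, 0.800 and 0.927% in day 7 libraries. Myh1, of type IIX fibres, made up 16.9, 21.8 and 17.9% and then 12.5, 13.4 and 14.6%. Myh4, of type IIB fibres, made up 79.9, 76.2 and 79.9% and then 86.8, 85.8 and 84.5%. None of these groups overlapped, and the exact two-sided permutation p was 0.1 for each, the smallest the design can give. Myh7, the slow chain, was at or below 0.0108% in all 6 libraries and at 0 counts in day 7 library 10. Quadriceps of the same days did not show that pattern, with Myh1 at 7.59 ± 0.432 and 11.99 ± 2.69%, Myh2 at 2.63 ± 0.617 and 2.68 ± 0.619% and Myh4 at 89.4 ± 1.07 and 85.0 ± 3.35%.

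As levels, Myh2 was at 1573, 955 and 1062 CPM in sedentary libraries and 397, 399 and 477 CPM at day 7. The groups did not overlap, but the gene did not pass over all genes (log2 -1.50 ± 0.28, adjusted p = 0.102). It was called by DESeq2 and with only the 6 libraries in the fit. Its level was already 801, 460 and 493 CPM at day 1 and 274, 778 and 597 CPM at day 2, below all sedentary libraries (log2 -1.03 and -1.12). Myh1 was at 7564, 9198 and 7665 CPM and at 6217, 5947 and 6693 CPM (log2 -0.37 ± 0.07, adjusted p = 0.102), and Myh4 at 32240 ± 1709 and 37896 ± 2689 CPM (log2 0.23 ± 0.08, unadjusted p = 0.00748). In bulk muscle fewer fibres of a type and less RNA in each cannot be told apart.

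Genes of slow fibres stood lower in part. On a list of 15 with 14 tested, 9 were lower, 4 of them at an unadjusted p under 0.05 (2.58% of all genes) and none higher at that level, with a median of -0.16. That median rests on single libraries, at -0.34, -0.10 and -0.25 without day 7 library 8, 9 or 10 and at -0.28, -0.28 and -0.08 without sedentary library 5, 6 or 7. Myoglobin (Mb), the oxygen store of oxidative fibres, was at 1679, 1736 and 1849 CPM in sedentary and 1295, 1204 and 1515 CPM at day 7, without overlap (log2 -0.39 ± 0.08, adjusted p = 0.13). Myl3, the slow essential light chain, was at 138, 137 and 145 CPM and at 76.0, 39.8 and 87.7 CPM (log2 -1.04 ± 0.33, adjusted p = 0.651). Its day 7 libraries differed more among themselves than the sedentary ones. Other slow genes were near the floor, with Myl2 at 8.40 ± 1.46 and 4.05 ± 1.74 CPM and the slow troponin Tnnt1 at 6.07 ± 2.96 and 5.20 ± 1.44 CPM, and Tnni1 leaned the other way (3.01 ± 1.96 and 5.57 ± 2.71 CPM). Casq2, the slow and cardiac calcium store, was higher at 32.6 ± 4.77 and 42.4 ± 4.45 CPM (log2 0.38, unadjusted p = 0.058 in edgeR).

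**Figure D3:**
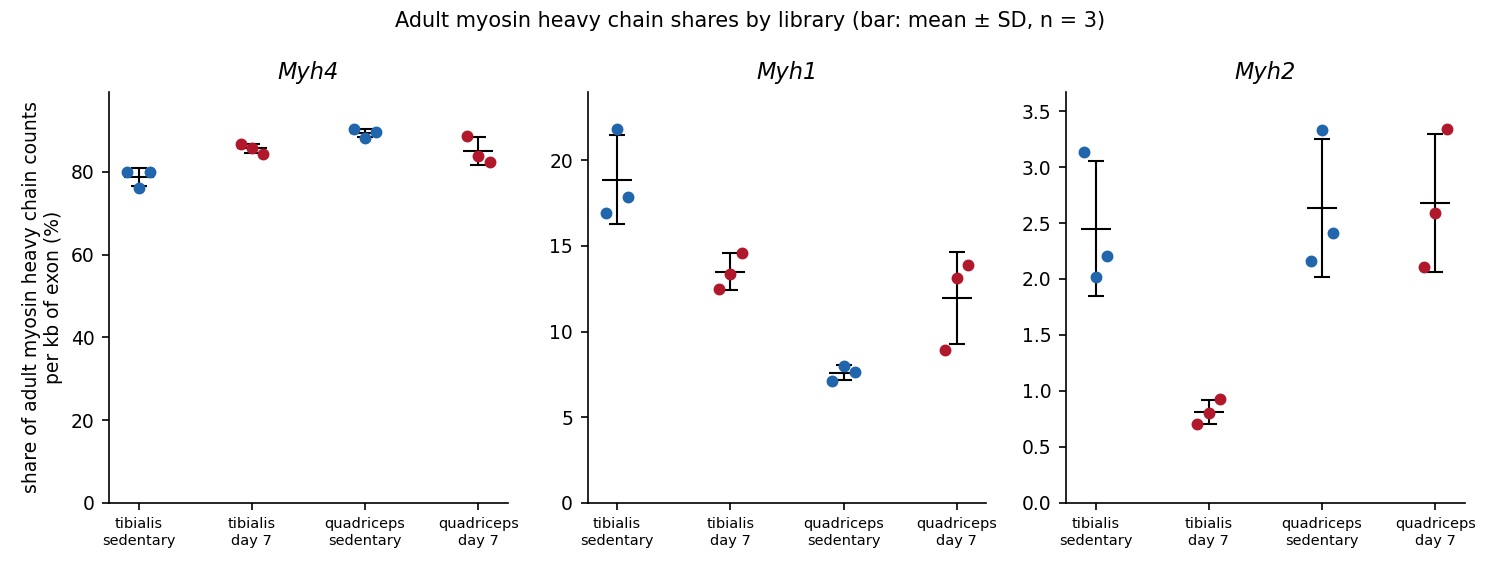
Share of each adult myosin heavy chain among counts per kb of exon for Myh7, Myh2, Myh1 and Myh4 together, in percent, for each sedentary (blue) and day 7 (red) library of both muscles, with mean and SD of 3 libraries as black bars. In the tibialis anterior the day 7 libraries are all above the sedentary ones for Myh4 and all below them for Myh1 and Myh2. The quadriceps libraries overlap for Myh2 and Myh4, and those of day 7 are all above the sedentary ones for Myh1.

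Fast fibre genes other than those 2 myosins lay slightly higher. Of 15 tested, 12 were higher, 8 of them at an unadjusted p under 0.05 (3.04% of all genes), with 2 lower at that level (Myh1 and Myh2), and the list's median was 0.12. Most of the list lies above 500 CPM, where 28.1% of genes had such a p in either direction. The summed level of the list was 176726 to 191852 CPM in sedentary and 194600 to 204097 CPM in day 7 libraries. Myl1, the fast essential light chain, was at 11220, 11597 and 12345 CPM and at 13684, 13609 and 13974 CPM (log2 0.23 ± 0.06, adjusted p = 0.443). Parvalbumin (Pvalb), the calcium buffer that speeds relaxation, was at 3725, 3619 and 4045 CPM and at 4450, 4257 and 4548 CPM (log2 0.22 ± 0.07). The day 7 libraries were all above in both, by steps that stay under the threshold over all genes. Skeletal actin (Acta1), named after its values were seen, was at 54789 ± 2156 and 63569 ± 1677 CPM (log2 0.21 ± 0.06, adjusted p = 0.553).

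Glycolysis and glycogen genes leaned higher. All 25 were tested, 19 were higher and 6 lower, and 14 were higher at an unadjusted p under 0.05 against 1 lower, where 3.04% and 2.58% of all genes were. Of genes above 500 CPM 28.1% had such a p in either direction. Groups did not overlap for 15 that were higher and 1 that was lower, where 6.16% and 5.48% of all genes were. The median was 0.14, from 0.10 to 0.18 on leaving out each library in turn. None was called by edgeR or by DESeq2, but Aldoa was by edgeR with no filter on low counts. Fbp2, the fructose-bisphosphatase of muscle, was at 46.4, 35.3 and 51.3 CPM and then at 69.5, 78.9 and 54.6 CPM (log2 0.61 ± 0.16, adjusted p = 0.49). Pygm, the muscle glycogen phosphorylase, was at 5266, 5183 and 5801 CPM and then at 6207, 6251 and 6127 CPM (log2 0.19 ± 0.05, adjusted p = 0.53). Both had no overlap between the groups, and the fold changes were small beside that of Nmrk2. Glycogen synthase (Gys1) was the member lower at that level (log2 -0.18, unadjusted p = 0.037).

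Calcium handling genes had 18 of 23 higher, 5 of them at an unadjusted p under 0.05 and 1 lower, with a median of 0.08. Over all genes 3.04% and 2.58% were, and 28.1% of genes above 500 CPM in either direction. Triadin (Trdn), which holds calsequestrin at the release channel, was at 527, 515 and 469 CPM in sedentary and 576, 592 and 619 CPM in day 7 libraries (log2 0.24 ± 0.07, adjusted p = 0.644). Atp2a1, the fast calcium pump, was at 61744 ± 4011 and 67324 ± 2054 CPM, with overlap (log2 0.12 ± 0.04). Rcan1, the calcineurin inhibitor, was at 65.8, 68.4 and 82.0 CPM and then at 122, 200 and 127 CPM (log2 1.05 ± 0.37, adjusted p = 0.745). All its day 7 libraries were above the sedentary ones, with library 9 well above the rest.

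**Figure D4:**
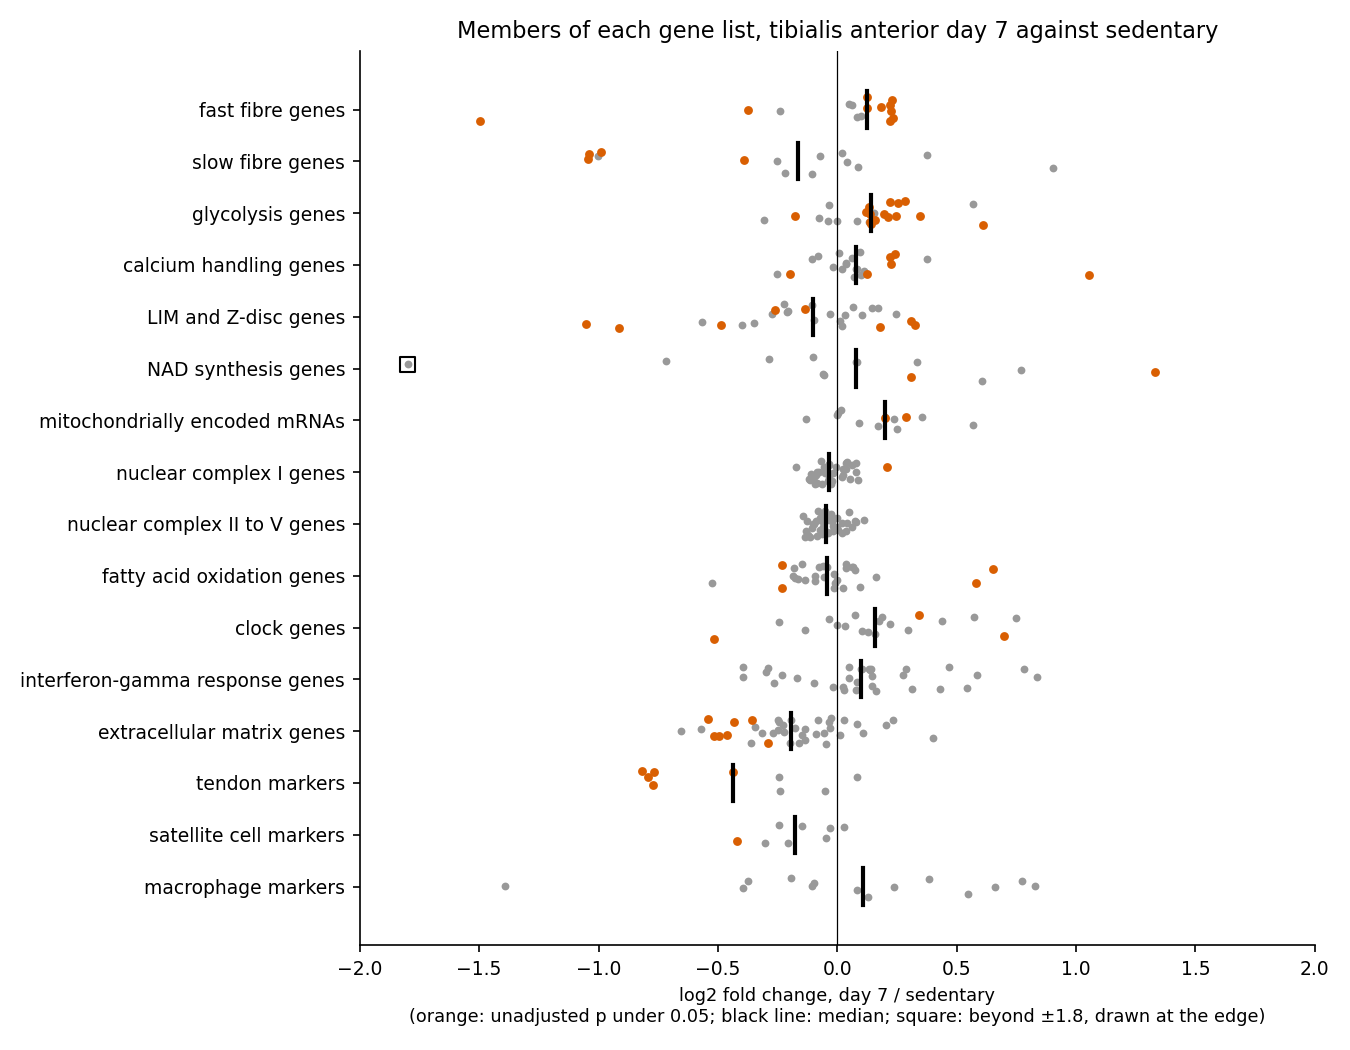
Log2 fold change at day 7 of every tested member of 16 gene lists, 1 point a gene, orange at an unadjusted p under 0.05, with the list's median as a black line. Glycolysis, fast fibre and calcium genes lie mostly right of 0, with medians of 0.14, 0.12 and 0.08, matrix and tendon genes mostly left, with medians of -0.20 and -0.44, and the nuclear respiratory chain genes sit tightly around 0.

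Outside the lists, the higher genes with the smallest p were of mixed kinds and none passed. Malat1, an abundant nuclear noncoding RNA, was at 557, 494 and 472 CPM and then at 689, 663 and 710 CPM (log2 0.44 ± 0.08, adjusted p = 0.102). Slc7a2, a carrier of arginine and lysine, was at 43.4, 36.1 and 38.7 CPM and then at 68.9, 77.8 and 55.9 CPM (log2 0.78 ± 0.15, adjusted p = 0.102). Nrep was at 194, 212 and 203 CPM and then at 310, 332 and 381 CPM (log2 0.75 ± 0.15, adjusted p = 0.13). All of these were without overlap, as the rule that named them required and as were 11.6% of all genes. All were called by DESeq2. Cd164, a sialomucin (log2 0.50 ± 0.10), D2hgdh, a dehydrogenase of the mitochondrion that clears 2-hydroxyglutarate (1.04 ± 0.23), Prkab2, the AMPK subunit that binds glycogen (0.41 ± 0.09), and Armc6 (0.96 ± 0.23) made up the rest with Ttn and Bhlhe41, at adjusted p from 0.13 to 0.367. D2hgdh stood at 10.7 ± 2.31 and 22.1 ± 3.92 CPM and Prkab2 at 409 ± 17.7 and 543 ± 31.8 CPM.

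Among lower genes, Car3, the carbonic anhydrase of muscle, was at 2932, 3689 and 3362 CPM and then at 2699, 2101 and 2616 CPM (log2 -0.43 ± 0.09, adjusted p = 0.166). It had been lower at day 1, when it was called (log2 -0.53, adjusted p = 0.0477), and at the sedentary level at day 2, with 3442, 3816 and 3445 CPM. Car3 was also lower in the quadriceps at day 7, where it was called (-0.59 ± 0.12, adjusted p = 0.0411). Hectd2os, a noncoding transcript opposite to Hectd2, was at 10.4, 8.86 and 4.74 CPM and then at 2.85, 1.27 and 1.94 CPM (log2 -1.97 ± 0.39, adjusted p = 0.13), with the same doubt on strand as for Atcayos.

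Nuclear genes of the respiratory chain were close to their sedentary level, and the mRNAs of the mitochondrial genome leaned higher. Nuclear genes of complex I, 37 tested, had 25 lower, with log2 fold changes from -0.17 to 0.21 and a median of -0.04. Those of complexes II to V, 42 tested, had 32 lower, from -0.14 to 0.11 with a median of -0.05. Of all genes 50.3% were lower. In the first list 1 gene, Ndufc1, had an unadjusted p under 0.05 (198 ± 11.6 and 228 ± 7.10 CPM), and in the second 0 had, against 5.62% of all genes. In either list 0 were called by edgeR. Of the 13 mRNAs of the mitochondrial genome 12 were higher, where 49.7% of all genes were. At an unadjusted p under 0.05 2 were higher (3.04% of all genes). The median was 0.20, or 0.10 without day 7 library 9 and 0.11 without sedentary library 7. Their summed levels overlapped, at 55518 to 59999 CPM in sedentary and 56939 to 64495 CPM in day 7 libraries. Among them mt-Nd2 was at 1570, 1342 and 1408 CPM and then at 1704, 1784 and 1794 CPM (log2 0.29 ± 0.10, adjusted p = 0.73). Fat oxidation genes had 10 of 29 higher and 19 lower, with a median of -0.04. At an unadjusted p under 0.05 (3.04% of all genes higher and 2.58% lower) 2 were higher and 2 lower. The lower ones were Etfb and Etfdh of electron transfer from fat oxidation, at 113 ± 5.55 and 96.4 ± 4.75 CPM and at 207 ± 23.2 and 176 ± 9.50 CPM. The higher ones were Ucp3, the mitochondrial carrier induced by fatty acids, at 59.2 ± 4.35 and 88.7 ± 19.8 CPM (log2 0.58 ± 0.22), and Pdk4, which holds back pyruvate oxidation, at 190, 159 and 164 CPM and then at 151, 353 and 302 CPM, with overlap. Ppargc1a, the coactivator of mitochondrial genes, was level at 59.6, 56.7 and 57.1 CPM and at 67.9, 53.1 and 58.3 CPM (log2 0.05 ± 0.16). Sirt3, the mitochondrial deacetylase that uses NAD, was at 26.7, 26.6 and 28.4 CPM and then at 21.4, 20.1 and 23.3 CPM (log2 -0.34 ± 0.15, unadjusted p = 0.0449).

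Matrix genes leaned lower. Of 39 tested, 32 were lower, where 50.3% of all genes were, 7 of them at an unadjusted p under 0.05 (2.58% of all genes) with none higher at that level, and the median was -0.20, or -0.13 without sedentary library 6. None was called by edgeR or by DESeq2, but Col4a2 was called by edgeR with no filter on low counts (adjusted p = 0.0454, from there to 0.994 over the alternatives). The basement membrane collagen genes Col4a1 and Col4a2, which share a promoter region, were both lower. Col4a1 was at 104, 131 and 114 CPM and then at 86.5, 92.1 and 64.9 CPM (log2 -0.52 ± 0.15, adjusted p = 0.603). Col4a2 was at 185, 171 and 154 CPM and then at 116, 122 and 124 CPM (log2 -0.50 ± 0.14, adjusted p = 0.603). Both were low at day 1 as well, with log2 fold changes of -0.65 and -0.74. Over the list, 36 of 39 were lower at day 1 (median -0.44) and 33 of 39 at day 2 (-0.29), against the same sedentary libraries. In the quadriceps at day 7, 7 of 39 were lower (median 0.19).

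Tendon genes, which enter a whole-muscle sample with its tendon ends, were lower in 8 of 9 tested, 5 of them at an unadjusted p under 0.05, where 2.58% of all genes were. The median was -0.44, or -0.69 without day 7 library 8 and -0.74 without sedentary library 5. Their summed level was 412 to 489 CPM in sedentary and 324 to 361 CPM in day 7 libraries. Against the same sedentary libraries, 8 of 9 were lower at day 1 (median -0.60) and 7 of 9 at day 2 (-0.37). In the quadriceps at day 7 it was 7 of 10 (-0.35). The defining member tenomodulin (Tnmd) was at 12.5, 12.3 and 9.32 CPM and then at 6.19, 6.09 and 7.16 CPM (log2 -0.82 ± 0.28, adjusted p = 0.737), and Fmod, a collagen-binding proteoglycan, at 211, 213 and 187 CPM and then at 159, 147 and 145 CPM (log2 -0.44 ± 0.15). Scx was too low to test. Fibro-adipogenic progenitors make matrix in the space around fibres, and their markers summed to 2546 to 2795 and 2444 to 2605 CPM, with 11 of 17 lower. The part of these cells and of the tendon in the matrix values was not tested.

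Satellite cell markers, of the muscle's stem cells, were lower in 7 of 8 tested and summed to 265 to 282 CPM in sedentary and 229 to 239 CPM in day 7 libraries. The largest member is Itga7, which fibres also make, at 131, 132 and 111 CPM against 105, 85.3 and 88.6 CPM (log2 -0.42 ± 0.14, unadjusted p = 0.0084). Pax7, the defining marker, was at 1.495 ± 0.726 and 1.21 ± 0.645 CPM, with overlap. Endothelial markers summed to 989 to 1104 and 967 to 1027 CPM, with 11 of 15 lower. Macrophage markers, 14 of 20 tested, summed to 109 to 140 and 117 to 155 CPM, with 8 higher. Only 2 of 18 T and NK cell markers and 0 of 10 neutrophil markers had enough counts to test. Foxp3, which defines regulatory T cells, had 0, 0 and 4 counts in sedentary and 0, 4 and 5 counts in day 7 libraries, and Ifng had 0 in all 6. Blood genes, 5 of 7 tested, were all higher, with a median of 0.42, and summed to 72.5 to 119 and 89.8 to 154 CPM, so the groups overlapped. Of 13 skeletal muscle fibre markers tested, 9 were higher and 4 lower. Groups did not overlap for 6 of the higher and for the 4 lower, where 6.16% and 5.48% of all genes were. The markers summed to 203648 to 214180 CPM in sedentary and 228898 to 233992 CPM in day 7 libraries, higher at day 7 without overlap. At those levels all the libraries carry skeletal muscle, and which muscle was not tested.

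Interferon genes gave no call by edgeR or DESeq2. Of 32 interferon-gamma response genes tested, 23 were higher and 9 lower, with a median of 0.10 and 0 at an unadjusted p under 0.05, where 5.62% of all genes were. Igtp, an interferon-inducible GTPase, was at 7.91, 15.4 and 9.17 CPM and then at 15.6, 20.7 and 19.4 CPM (log2 0.78 ± 0.38, adjusted p = 0.885). Type I interferon genes had 9 of 20 higher with a median of -0.01, and MHC genes 6 of 14 higher with a median of -0.04. B2m, the chain that class I molecules share, was at 80.4 ± 3.93 and 86.6 ± 12.3 CPM (log2 0.11 ± 0.12). By summed level the interferon-gamma list was at 639 to 685 CPM in sedentary and 657 to 716 CPM in day 7 libraries.

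Clock genes held small differences, and the labels give no hour of dissection. Of 19 tested, 14 were higher, with a median of 0.16. Bhlhe41, a repressor driven by the clock, was at 56.3, 65.7 and 70.7 CPM and then at 91.6, 101 and 120 CPM (log2 0.70 ± 0.15, adjusted p = 0.189). Arntl, the core activator, was at 67.1, 52.5 and 48.7 CPM and then at 43.9, 36.1 and 37.6 CPM (log2 -0.52 ± 0.18, adjusted p = 0.737). Its call came at days 1 and 2, with log2 fold changes of -1.17 on both (adjusted p = 0.0283 and 0.0182). The output factor Tef was at 68.2 ± 8.49 and 86.3 ± 7.22 CPM (log2 0.34 ± 0.12). Early response and heat shock genes had 13 of 22 higher. At an unadjusted p under 0.05 (3.04% of all genes higher and 2.58% lower) 2 were higher and 1 lower. The lower one was the small heat shock protein gene Hspb7, at 280, 251 and 247 CPM and then at 143, 124 and 156 CPM, without overlap (log2 -0.88 ± 0.30, adjusted p = 0.73).

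By day 7 several sarcomere genes stood on opposite sides of the sedentary level in the tibialis anterior and the quadriceps. Of 13819 genes tested for a difference in response between tibialis anterior and quadriceps, 11 were called (0.0796%), and all of them were lower in the tibialis anterior response. In the quadriceps alone 28 of 13062 genes were called at day 7 (0.214%). Leaving out 1 library left between 5 and 19 called, the fewest without quadriceps day 7 library 9 and the most without quadriceps day 7 library 8. Fhl1, Hspb6, Myh1, Actn2 and H19 were called in every such fit.

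Fhl1 differed most firmly (log2 -2.003 ± 0.21, adjusted p = 1.27e-05, edgeR). Where it fell in the tibialis anterior, it was at 612, 817 and 732 CPM in sedentary and 1199, 1645 and 1740 CPM in day 7 quadriceps, a rise of 1.08 ± 0.14 (adjusted p = 0.000689). At day 7 every tibialis anterior library held less than every quadriceps library, and in sedentary mice every one held more. The TMM factors were found within each muscle, and the difference in level between muscles was not tested. Actn2 was at 1254, 1452 and 1268 CPM and then at 1612, 2136 and 2066 CPM in quadriceps, and the responses differed by -1.04 ± 0.13 (adjusted p = 8.03e-05). Myh1 was at 3371, 3491 and 3671 CPM and then at 4664, 5736 and 6467 CPM, with a difference of -1.06 ± 0.13 (adjusted p = 6.98e-05). For both genes the day 7 libraries were lower in one muscle and higher in the other, with no overlap in either.

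Small heat shock proteins that guard the sarcomere were in the same set. Hspb6 was at 1673, 1495 and 1539 CPM and then at 1338, 1427 and 1285 CPM in the tibialis anterior, and at 979, 1078 and 954 and then 1473, 1720 and 1480 CPM in the quadriceps (difference -0.85 ± 0.10, adjusted p = 6.98e-05). Hspb7 was at 132, 204 and 139 and then 257, 395 and 456 CPM in the quadriceps (difference -2.11 ± 0.41, adjusted p = 0.0364). The Hspb7 difference lost its call in 11 of 19 alternative fits (adjusted p up to 0.168), and that of Hspb6 in 0. Both were lower at day 7 in one muscle and higher in the other. H19, a noncoding RNA of growth and regeneration, was level in the tibialis anterior (66.5 ± 3.22 and 60.6 ± 2.43 CPM) and rose in the quadriceps, where it was called, with a difference of -1.64 ± 0.27 (adjusted p = 0.00497). Myh3, the embryonic myosin, was likewise level here, at 1.00, 6.01 and 3.51 CPM and then at 4.08, 3.12 and 3.73 CPM. The perinatal Myh8 stood at 2.73 ± 1.95 and 3.22 ± 2.20 CPM, and both groups overlapped for each of these chains.

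**Figure D5:**
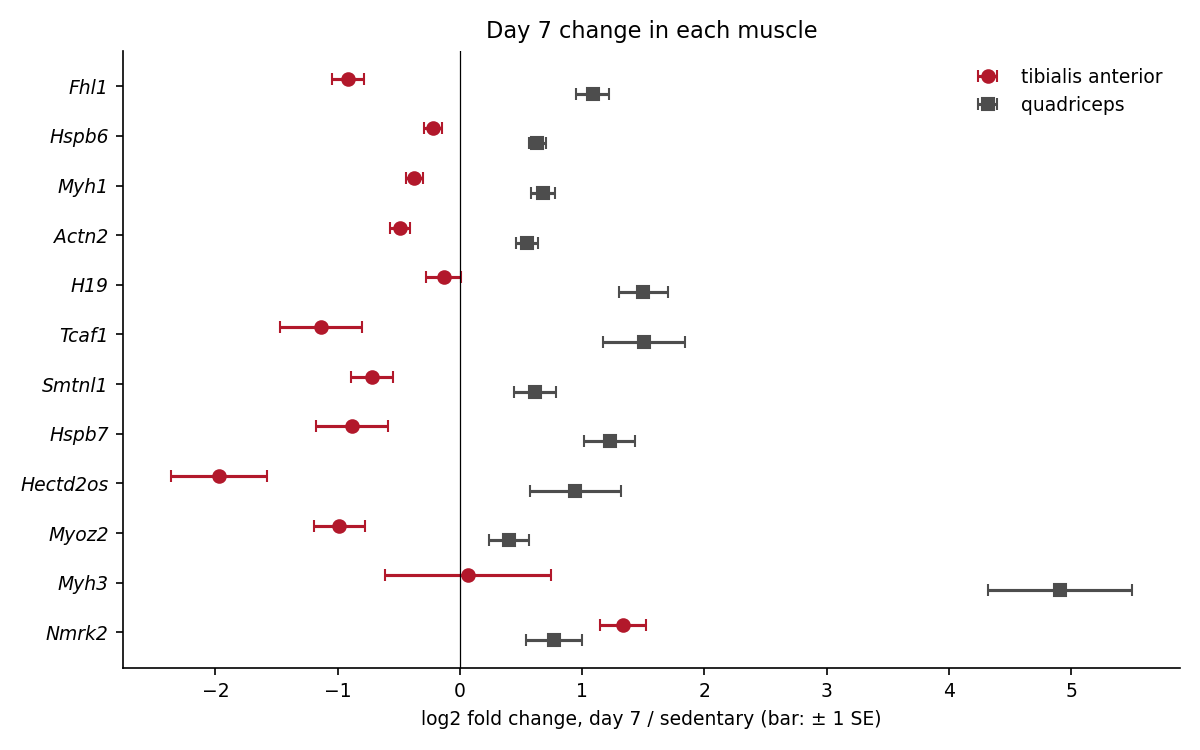
Log2 fold change from sedentary to day 7 with 1 SE in the tibialis anterior (red circles) and the quadriceps (grey squares) for the 11 genes whose response differed between the muscles and for Nmrk2. Fhl1, Hspb6, Myh1 and Actn2 lie left of 0 in the tibialis anterior and right of it in the quadriceps, H19 and Myh3 are near 0 in the tibialis anterior, and Nmrk2 is right of 0 in both.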

How the data were processed

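The values used were whole-number gene counts deposited by the authors, made with STAR 2.7.3a, featureCounts and the mm10 genome per the submitters' processing notes. Per the labels' protocols, polyA RNA libraries were built from 2 ng of RNA a sample. The annotation, the use of strand and the treatment of reads matching several genes are not stated there. The genes compared, the lists and the alternatives were chosen with earlier results of these data known. The 12 wild-type tibialis anterior libraries were fitted together in edgeR 4.0.16 (R 4.3.3), after filterByExpr (minimum count 10, total 15) and TMM scaling, with quasi-likelihood F tests of group means and Benjamini-Hochberg adjustment over all genes. The difference between muscles was tested on 24 libraries. The SE of a log2 fold change is its size divided by the root of its F statistic. Levels are TMM-scaled CPM, scaled within each muscle, mean ± SD over 3 libraries. Steps were tested on simulated data. Alternatives used DESeq2 1.42.0, limma-voom 3.58.1, other filters, scalings and sample sets, and each library left out.

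Genes named were the called ones, the 10 higher and 10 lower with the smallest p among non-overlapping genes of at least 5 CPM, the 3 with the smallest p of each list with at least 5 tested members, the NAD and LIM lists, Foxp3, Ifng and Ppargc1a, and the 8 with the smallest p for the difference between muscles. Not every gene this rule names is reported here. The other called muscle differences, Myh4, Myh7, Myh8, Acta1, Rcan1, further list members and the genes under the other observations were named after their values were seen. Coordinates are GENCODE vM21 on GRCm38, in which 52936 of the 55011 symbols matched, and promoters are RefSeq GRCm38.p6.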

Additional observations from a re-analysis of the deposited data

Results flagged for a closer look

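The response at day 7 differed between tibialis anterior and quadriceps for 11 genes, by an interaction test in edgeR on 24 libraries (tibialis anterior minus quadriceps, log2). In the sarcomere these were Fhl1 (-2.003 ± 0.21, adjusted p = 1.27e-05), Myh1 (-1.06 ± 0.13, adjusted p = 6.98e-05), Actn2 (-1.04 ± 0.13, adjusted p = 8.03e-05), Myoz2 (-1.39 ± 0.28, adjusted p = 0.0427) and the embryonic myosin Myh3 (-4.83 ± 0.91, adjusted p = 0.0314). The small heat shock protein genes were Hspb6 (-0.85 ± 0.10, adjusted p = 6.98e-05) and Hspb7 (-2.11 ± 0.41, adjusted p = 0.0364). Smtnl1, a regulator of contraction in smooth and striated muscle, differed by -1.34 ± 0.26 (adjusted p = 0.0314), with 62.2 ± 8.59 and 37.8 ± 6.38 CPM in the tibialis anterior. Tcaf1, a partner of TRPM channels, differed by -2.64 ± 0.47 (adjusted p = 0.0162), at 11.5 ± 1.07 and 5.23 ± 0.504 CPM. The noncoding genes were H19 (-1.64 ± 0.27, adjusted p = 0.00497) and Hectd2os (-2.92 ± 0.56, adjusted p = 0.0314). In the tibialis anterior alone only Fhl1 of these 11 was called. Over 19 alternative fits Fhl1, Hspb6, Myh1, Actn2 and H19 kept the call for the difference in all. It was lost in 11 for Myoz2, Hspb7 and Myh3, in 10 for Hectd2os and Smtnl1 and in 6 for Tcaf1.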

How the results depend on the processing

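With 2 genes called at day 7, the counts were 4 with DESeq2 size factors, 24 by DESeq2, 5 by limma-voom, 57 with no filter, 4 with a minimum count of 50, 9 with only the 6 libraries, 7 with 24 libraries fitted, and 0 to 2 on leaving out 1 library. Nmrk2 and Fhl1 were among the calls in each of these but the fits that left out a library. At day 1, 7 calls became 4 with DESeq2 size factors and 86 by DESeq2. At day 2, 8 became 67 by DESeq2, and in the quadriceps at day 7, 28 became 115. The 11 genes differing between muscles became 29 by DESeq2, 7 by limma-voom, 52 with no filter, 17 with only 12 libraries and 5 to 19 on leaving out 1 library. The cause of these changes was not tested. No gene value changed sign past its threshold under these alternatives. No paired analysis was possible for the day 7 comparison because its groups share no ID number. The muscles do share numbers, and the labels do not say whether these mark the same mice. Deviations of same-numbered libraries correlated at -0.03 to 0.05. Of 12 tibialis anterior libraries 9 correlated best with their own number, out of the 3 quadriceps libraries of that day. A replicate block on the numbers gave 12 calls, 8 of them among the 11, without Myh3 (adjusted p = 0.189), Hectd2os (0.0975) and Myoz2 (0.0601). Genes under 5 CPM had a median SE of 0.66 on the log2 scale, so differences of 1 there were often not detectable at this depth.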

Other observations

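A rule of size, set after the data were seen, takes genes above 50 CPM with a log2 fold change beyond 0.5. Of 2123 genes above 50 CPM, 22 were higher and 12 lower by that much at day 7, and Nmrk2 and Fhl1 are the called ones among them. Smox and Amd1, of polyamine metabolism, were among the higher and did not pass. Smox, which oxidises spermine, was at 435, 413 and 393 CPM in sedentary and 741, 827 and 495 CPM in day 7 libraries (log2 0.73 ± 0.22, adjusted p = 0.632, edgeR). Amd1, which makes the aminopropyl donor for spermidine and spermine, was at 395, 363 and 394 CPM and then at 498, 647 and 503 CPM (log2 0.52 ± 0.17, adjusted p = 0.737). Neither pair of groups overlapped. The first enzyme of the route, Odc1, was at 13.2 ± 4.54 and 19.1 ± 5.16 CPM and the spermidine synthase Srm at 8.65 ± 3.97 and 5.61 ± 2.06 CPM, both with overlap, while Sms was at 38.7 ± 0.824 and 43.5 ± 3.28 CPM and Sat1 at 36.4 ± 3.76 and 36.9 ± 4.46 CPM. In the quadriceps Smox stood at 586, 565 and 622 and then 1146, 998 and 715 CPM (log2 0.69 ± 0.18, adjusted p = 0.186).

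Other genes found by that rule were Mettl21c, a lysine methyltransferase of muscle, at 51.8, 53.0 and 54.2 CPM and then at 89.7, 111 and 89.7 CPM (log2 0.87 ± 0.28, adjusted p = 0.677), and cardiac actin, Actc1, at 288, 156 and 213 CPM and then at 276, 558 and 544 CPM (log2 1.07 ± 0.29, adjusted p = 0.55). The sedentary libraries of Mettl21c were nearly equal, while those of Actc1 overlapped day 7 library 8. The phosphatase genes Dusp1 (86.3 ± 17.2 and 124 ± 6.67 CPM) and Dusp10 (41.9 ± 4.65 and 66.1 ± 11.4 CPM), which switch off MAP kinases, and Pfkfb3, a driver of glycolytic flux (128 ± 21.99 and 185 ± 21.8 CPM), had adjusted p from 0.604 to 0.644.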
